A study of Mus musculus with 5 samples.

Results

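The 33 genes described here make cholesterol and fatty acids or control their making, and they were taken as a fixed list of gene symbols from the 32285 features counted in every library. All 33 symbols were found. They comprise 8 enzymes from acetyl units to squalene, 10 enzymes from squalene to cholesterol, 6 genes of sterol sensing and transport, 4 genes of fatty acid synthesis and 5 of fatty acid elongation and desaturation. The list does not hold every enzyme of these pathways.

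The study profiled single cells from the hippocampus of mouse pups at postnatal day 1 in 5 droplet libraries. Trem2 WT pups (wild type) gave 3 libraries, numbered 1 to 3, and Trem2 KO pups (Trem2 knock-out) gave 2, numbered 2 and 3. Each library pooled the cells of 2 pups, so single animals cannot be told apart. By the sample descriptions both libraries numbered 2 came from 2 males and the others from 1 male and 1 female, whereas the sex label reads male and female throughout. No treatment, transgene or Cre driver is named for any group.

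Cholesterol in the brain is made locally, because lipoproteins of the blood do not cross the blood-brain barrier. Acetyl units are built into mevalonate and then squalene, which is closed to lanosterol and trimmed to cholesterol. The pathway is governed by the SREBP transcription factors, encoded by Srebf1 and Srebf2, which SCAP carries to the Golgi for cleavage when sterols are low and INSIG proteins hold back when sterols are high. SREBPs also act on genes that make and desaturate fatty acids. Astrocytes supply neurons with cholesterol, and young neurons also make their own.

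SREBPs bind sterol regulatory elements (SRE), often near CCAAT boxes, which NF-Y binds, and GC boxes, which SP1 binds. Promoter windows of 300 bases from RefSeq (GRCm38.p6) were found for 26 of the 33 genes. The SRE letters TCACNCCAC, searched on both strands, were in 1 of the 26, Hmgcs1 (3.85%), and in 1.44% of all 27025 genes with a window. CCAAT on either strand was in 21 of the 26 (80.8%), against 41.1% of all genes. The GC box letters GGGCGG on either strand were in 22 of the 26 (84.6%), against 38.2% of all genes. A gene with several windows was counted if any of them held the letters. Of the 32851 single windows, 1.24%, 37.4% and 35.7% held the SRE, CCAAT and GC box letters. A match describes letters and is not a measured binding site. The windows of Hmgcs1, Idi1 and Msmo1 are shown because Hmgcs1 alone held the SRE letters and because Idi1 and Msmo1 differed most between glia and excitatory neurons among the sterol enzymes, as described below. Capitals mark the SRE letters in Hmgcs1, and CCAAT or its reverse complement in all 3. In these windows no match of the 3 motifs overlaps another.
Hmgcs1 (chr13:119690101-119690400, plus strand): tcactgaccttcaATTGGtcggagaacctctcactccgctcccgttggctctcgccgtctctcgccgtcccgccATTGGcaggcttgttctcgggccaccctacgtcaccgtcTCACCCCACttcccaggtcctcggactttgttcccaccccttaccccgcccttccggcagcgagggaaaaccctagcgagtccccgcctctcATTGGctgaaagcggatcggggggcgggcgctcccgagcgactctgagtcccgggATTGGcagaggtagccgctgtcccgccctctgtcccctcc
Idi1 (chr13:8885356-8885655, plus strand): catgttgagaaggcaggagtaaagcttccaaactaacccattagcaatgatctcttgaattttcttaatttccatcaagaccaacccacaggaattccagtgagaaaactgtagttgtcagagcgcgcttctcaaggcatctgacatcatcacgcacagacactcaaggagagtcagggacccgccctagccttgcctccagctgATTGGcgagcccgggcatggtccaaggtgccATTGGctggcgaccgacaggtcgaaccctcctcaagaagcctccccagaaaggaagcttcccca
Msmo1 (chr8:64733529-64733828, minus strand): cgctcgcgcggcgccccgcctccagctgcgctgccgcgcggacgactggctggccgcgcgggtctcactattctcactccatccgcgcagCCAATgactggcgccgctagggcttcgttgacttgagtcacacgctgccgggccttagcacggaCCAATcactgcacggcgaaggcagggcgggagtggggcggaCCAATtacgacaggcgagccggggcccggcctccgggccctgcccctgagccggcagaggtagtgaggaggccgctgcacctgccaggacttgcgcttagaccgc

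Cells were grouped by clustering without the 33 genes and without 31 other pathway genes. Clusters were named from marker genes, so each class name ends in "like" and is a rebuilt one. The libraries held 60024793 to 91205882 UMIs (unique molecular identifiers, which tag single captured transcripts) on 6512 to 10582 barcodes, and 28389 of the 29230 cells kept fell into named classes. Pairs of libraries shared 12 to 26 barcodes. Levels are given in CPM, a gene's UMIs summed over the cells of a class in a library and scaled to the same total, as mean ± SD over the 5 libraries. They are shares of a class's RNA, so a change of RNA content per cell does not show in them. Trem2 in microglia-like cells stood at 1365, 1434 and 925 CPM in the WT libraries and 59.1 and 88.7 CPM in the KO libraries (log2 difference -4.11, SE 0.35, edgeR adjusted p = 0.00752). The call was lost without WT library 2, without KO library 2 or without KO library 3. A low-RNA cluster made up 22.2%, 40.96% and 65.5% of the WT microglia-like cells and 36.7% and 77.5% of the KO ones.

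The sterol pathway stood highest in the radial glia and astrocyte lineage. The summed level of the 18 sterol enzyme genes was 2967 ± 119 CPM in the 4744 radial glia or astrocyte-like cells (n = 5 libraries). It was 2782, 2933 and 3099 CPM in the WT libraries and 3014 and 3006 CPM in the KO libraries. Every one of these values lay above every library of the other 14 classes. Oligodendrocyte precursor-like cells followed at 1891 ± 235 CPM, dividing oligodendrocyte precursor-like cells at 1818 ± 280.2 CPM, inhibitory neuron-like cells at 1721 ± 101 CPM and the 12412 excitatory neuron-like cells at 1526 ± 79.3 CPM. Neighbours in this order overlapped. Intermediate progenitor-like cells, the precursors of excitatory neurons, had 778 ± 32.2 CPM. Of these 2664 cells, 1432 were in a cluster led by genes such as Tac2, Neurod1, Calb2 and Eomes. Taken one by one by their markers, 261 met the intermediate progenitor list and 349 the excitatory neuron list. A further 132 met the radial glia or astrocyte list and 1898 no single list. The lowest sums were in microglia-like (487 ± 188 CPM), endothelial cell-like (483 ± 44.7 CPM) and border macrophage-like cells (432 ± 72.5 CPM), which overlapped.

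The fatty acid enzymes shared the first class but not the order below it. The sum of the 9 fatty acid enzyme genes was 1645 ± 221 CPM in radial glia or astrocyte-like cells and 1041 ± 111 CPM in ependymal cell-like cells. Oligodendrocyte precursor-like cells had 842 ± 122 CPM, excitatory neuron-like cells 601 ± 23.4 CPM and microglia-like cells 280.5 ± 30.1 CPM. Ependymal cell-like cells were second for the fatty acid enzymes and eighth for the sterol enzymes, and the second place rested on 1 gene. Without Scd2, a stearoyl-CoA desaturase, the fatty acid sum was 782 ± 69.3 CPM in radial glia or astrocyte-like, 486 ± 57.9 CPM in dividing oligodendrocyte precursor-like, 478 ± 66.4 CPM in ependymal cell-like and 439.6 ± 52.3 CPM in oligodendrocyte precursor-like cells, and the last 3 overlapped. 

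The ependymal cell-like class was mixed. Of its 854 cells, 428 were in 2 clusters with at least 2 markers of the ependymal list among their leading genes. Dynlrb2, a gene of motile cilia, was among them in both, and these clusters are called cilia-led. The other 426 cells were in 2 clusters led mostly by other genes, among them Clu and Gfap, which astrocytes carry. Foxj1 did not separate the pairs. It was among the leading genes of 1 cilia-led cluster (142 cells) and of 1 other cluster (152 cells). Taken one by one by their markers, 109 of the 854 cells met the ependymal list, 207 the radial glia or astrocyte list and 537 no single list. These clusters were looked at apart after the values of the class were seen. The fatty acid enzyme sum was 858 ± 66.5 CPM in the cilia-led clusters and 1482 ± 250.2 CPM in the other pair, and the sterol enzyme sum 831 ± 48.7 and 1993 ± 191 CPM. In the cilia-led clusters the fatty acid sum overlapped that of oligodendrocyte precursor-like cells.

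Of single genes, 21 of the 33 had their highest mean in radial glia or astrocyte-like cells, and 7 of these did not overlap the next class. The lowest mean of a gene was most often in border macrophage-like cells (12 genes), endothelial cell-like cells (7) or microglia-like cells (5). The same counts were not made over all genes, so these counts only describe the 33. Border macrophage-like cells numbered 160, with 9 in KO 3. Their 12 lowest means rested on 8 to 35 UMIs per gene in all, so they lie near the floor.

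**Figure D1:**
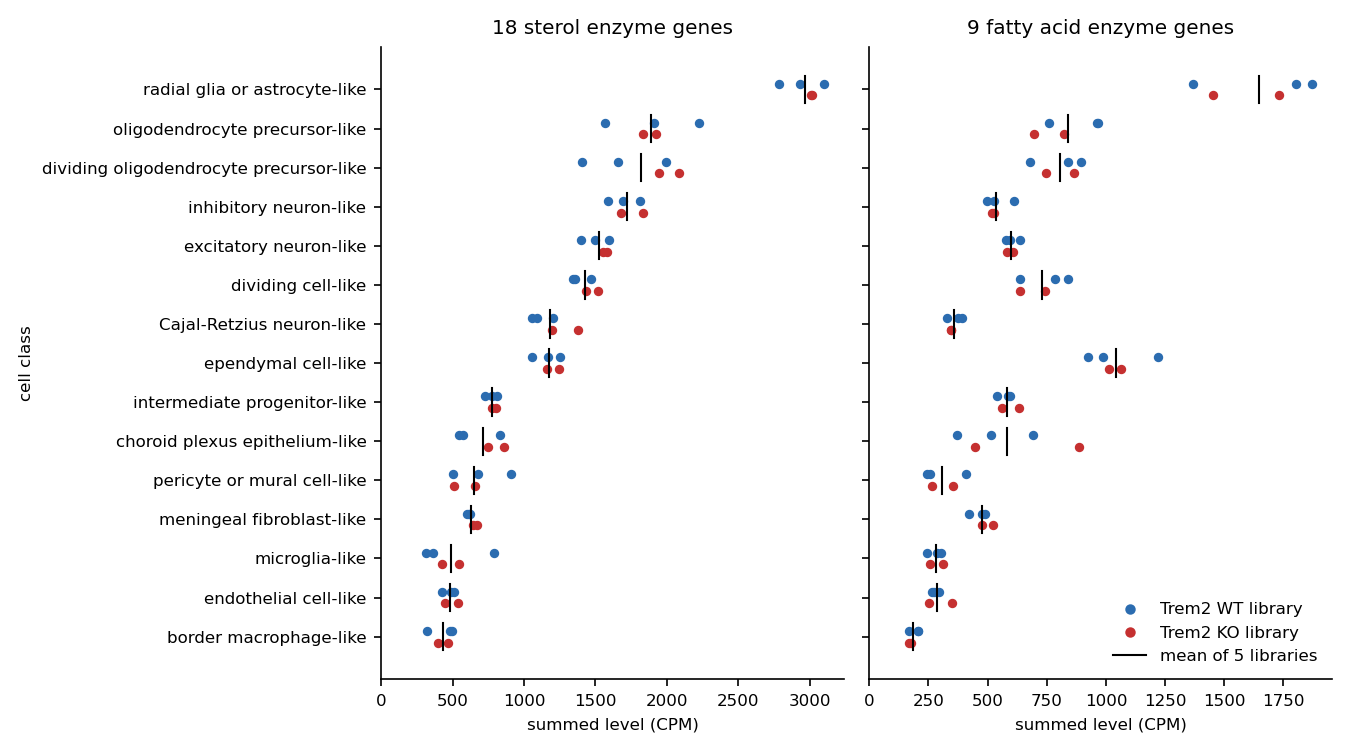
Summed level in CPM (horizontal axes) of the 18 sterol enzyme genes (left) and the 9 fatty acid enzyme genes (right) in 15 cell classes. Each point is a library (blue Trem2 WT, red Trem2 KO) and each vertical line the mean of 5 libraries; radial glia or astrocyte-like libraries are highest in both panels, and ependymal cell-like libraries, whose cells come from unlike clusters, are eighth on the left and second on the right.

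Among the first enzymes, Hmgcs1, which makes HMG-CoA, had the widest range over classes, followed by Idi1 and Fdps. Hmgcs1 (chr13:119690379-119708260 in mm10) was 751, 725 and 859.8 CPM in WT and 736 and 760.1 CPM in KO radial glia or astrocyte-like cells. In oligodendrocyte precursor-like cells, the next class, it was 401, 308, 474, 366 and 361 CPM in WT 1, 2, 3 and KO 2, 3, so these classes did not overlap. Its lowest mean was in endothelial cell-like cells (65.5 ± 7.21 CPM), 11.7-fold below the highest. Idi1, the isomerase that readies isoprene units for joining, was 238, 277, 299, 262 and 278 CPM in radial glia or astrocyte-like cells, in the same library order. It was 57.5, 59.4, 73.4, 59.8 and 65.3 CPM in excitatory neuron-like cells. Every glial library was above every neuronal one for Idi1, while oligodendrocyte precursor-like cells (196 ± 47.5 CPM) overlapped the glial range. Fdps, which makes farnesyl pyrophosphate, had 380.1 ± 53.7 CPM in radial glia or astrocyte-like and 324 ± 25.7 CPM in inhibitory neuron-like cells, which overlapped. Acat2, an acetyl-CoA acetyltransferase, was highest in inhibitory neuron-like cells (126 ± 6.08 CPM), above every library of the next class.

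After squalene, Lss, Sqle and Dhcr7 had the widest ranges. Sqle, the squalene epoxidase, was highest in ependymal cell-like cells, at 260.4, 225, 219.8, 246 and 266 CPM in WT 1, 2, 3 and KO 2, 3. Radial glia or astrocyte-like cells followed with 177, 178, 196, 187 and 193 CPM, all below the ependymal values. The cilia-led ependymal clusters had 277, 256, 223, 266 and 275 CPM, above every glial value, and the other pair 225, 171, 207, 212 and 233 CPM, with overlap. Lss, which closes squalene epoxide to lanosterol, had 31.3 ± 4.96 CPM in radial glia or astrocyte-like and 31.2 ± 11.9 CPM in oligodendrocyte precursor-like cells, with overlap. In pericyte or mural cell-like cells Lss had 1 UMI in all. Dhcr7, the reductase that gives cholesterol from its direct precursor, had 46.3 ± 3.804 and 36.7 ± 8.24 CPM in these glial classes, which also overlapped.

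Ebp, a sterol isomerase, ran opposite to its pathway. It was 84.1, 73.7 and 77.4 CPM in WT and 70.6 and 62.6 CPM in KO microglia-like cells. Excitatory neuron-like cells had 22.6 ± 3.98 CPM and radial glia or astrocyte-like cells 19.97 ± 2.06 CPM, both below every microglial value. Border macrophage-like (73.8 ± 26.4 CPM) and endothelial cell-like cells (65.2 ± 7.93 CPM) overlapped microglia-like cells. Over the 15 classes, the level of Ebp and the mean of the other sterol enzymes had a Pearson r of -0.74 on the log2 scale. The other 17 sterol enzymes lay between 0.758 (Mvd, the mevalonate pyrophosphate decarboxylase) and 0.978 (Cyp51, the lanosterol demethylase). The 15 points come from the same 5 libraries and share their scaling, so these r values are descriptions.

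**Figure D2:**
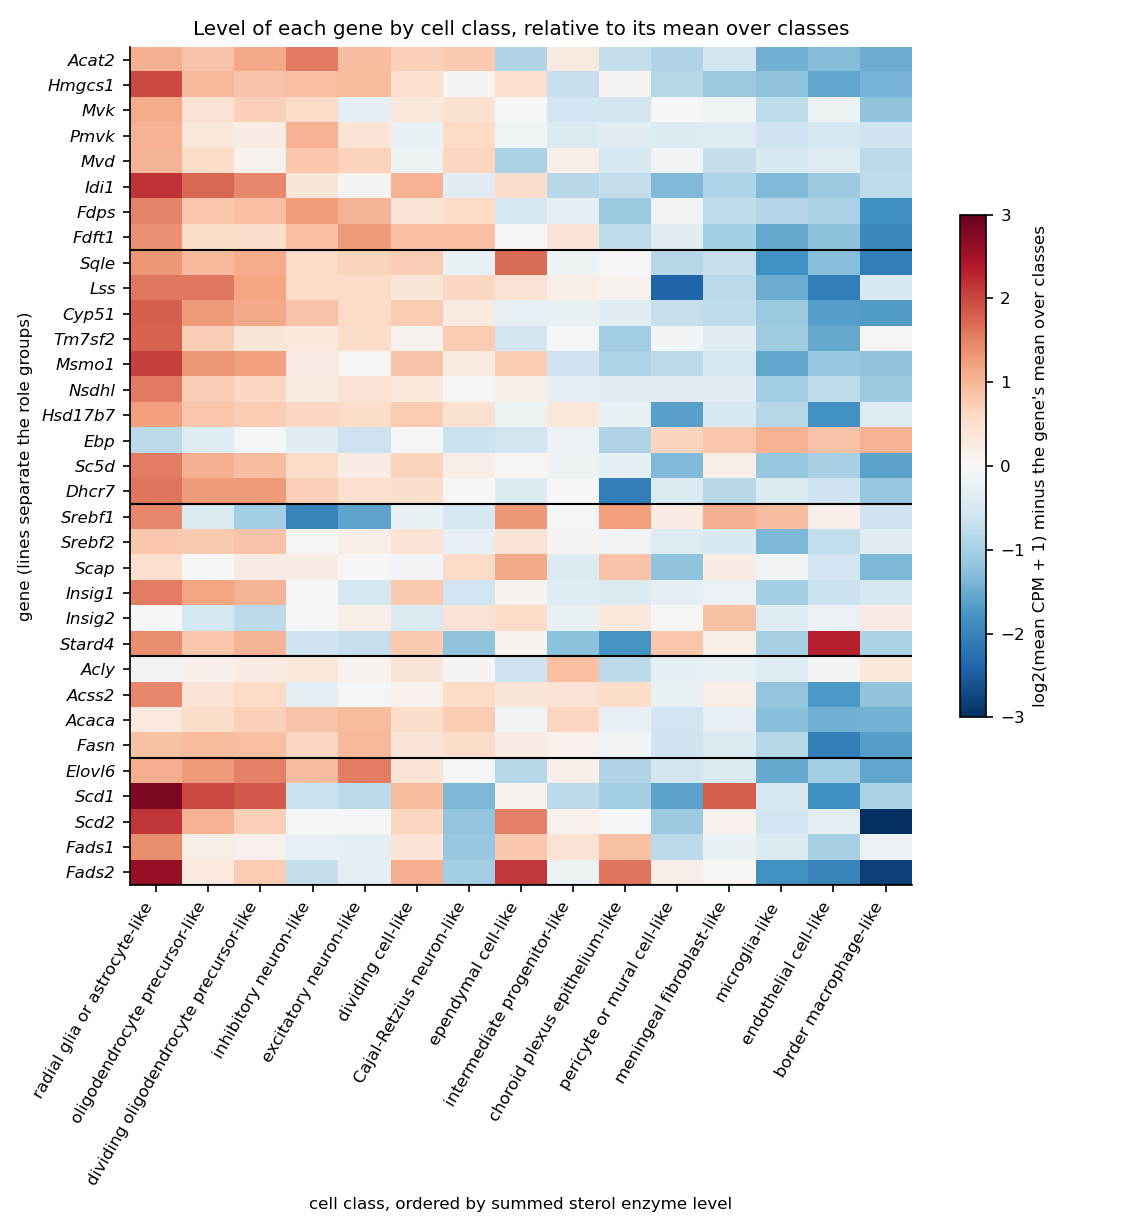
Level of 33 genes (rows, lines separate the role groups) in 15 cell classes (columns, ordered by the summed sterol enzyme level); the color is log2 of the mean CPM plus 1, minus the gene's mean over the classes, from blue (lower) to red (higher). Most sterol enzymes are reddest in the first column, whereas Ebp is red only in the last 5 columns, Sqle is reddest in ependymal cell-like and Stard4 in endothelial cell-like cells.

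The sensing and transport genes did not share a single pattern. Srebf1 was 28.6, 17.1 and 32.3 CPM in WT and 26.8 and 43.6 CPM in KO radial glia or astrocyte-like cells, and 2.76 ± 0.266 CPM in excitatory neuron-like cells. Ependymal cell-like (26.5 ± 6.55 CPM) and microglia-like cells (20.4 ± 7.28 CPM, from 58 UMIs in all) overlapped the glial values, and the neurons did not. Srebf2 ranged from 19.9 ± 6.67 CPM in microglia-like to 94.97 ± 11.5 CPM in dividing oligodendrocyte precursor-like cells. Insig1, a retention factor that is itself an SREBP target, was 78.4, 82.5, 109.6, 100.4 and 117 CPM in radial glia or astrocyte-like cells and 22.9 ± 6.25 CPM in excitatory neuron-like cells, without overlap. Its paralog Insig2 was highest in meningeal fibroblast-like cells (67.04 ± 9.76 CPM). Stard4, a soluble carrier of cholesterol between membranes, was highest in endothelial cell-like cells at 87.95, 92.4, 66.7, 95.7 and 92.7 CPM. All 5 values were above those of radial glia or astrocyte-like cells (39.2 to 56.01 CPM), the next class.

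The genes of palmitate synthesis were not led by a single class. Acaca, the acetyl-CoA carboxylase, was 64.2, 63.9, 61, 63.7 and 60.4 CPM in excitatory neuron-like cells and 39.02 ± 4.62 CPM in radial glia or astrocyte-like cells, without overlap. Fasn, the fatty acid synthase, had 88.4 ± 11.4 and 82 ± 9.78 CPM in these classes, with overlap. Acly, which splits citrate to give acetyl-CoA, was highest in intermediate progenitor-like cells (104, 97.9, 86.3, 96.96 and 88.4 CPM), above every dividing cell-like library (53.6 to 76.5 CPM). Acss2, which makes acetyl-CoA from acetate, was highest in radial glia or astrocyte-like cells (21.2 ± 3.29 CPM), against 7.003 ± 0.906 CPM in excitatory neuron-like cells.

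Fads2, Scd2 and Scd1, all fatty acid desaturases, had the widest ranges of the 33 genes. Scd2, an abundant stearoyl-CoA desaturase of brain, was 998, 662, 1056, 704 and 893 CPM in radial glia or astrocyte-like cells in WT 1, 2, 3 and KO 2, 3. The lowest values were those of the libraries numbered 2. Excitatory neuron-like cells had 189.8 ± 20.5 CPM, without overlap. Scd1, its paralog, was 53.5, 36.6, 42.6, 35.9 and 37.5 CPM in the same glia and 2.56 ± 0.777 CPM in excitatory neuron-like cells. Fads2, the first desaturase on the way to long-chain polyunsaturated fatty acids, was 366, 274, 325, 315 and 336 CPM in radial glia or astrocyte-like cells and 228 ± 35.3 CPM in ependymal cell-like cells, which overlapped. The cilia-led ependymal clusters had 146 ± 17.6 CPM, below every glial value, and the other pair 418 ± 84.7 CPM. In border macrophage-like cells Fads2 had 8 UMIs in all. Exons of 8 of the 33 genes overlap exons of another feature, on the opposite strand for 7 (Acss2, Cyp51, Elovl6, Fdft1, Hmgcs1, Lss and Srebf1) and on the same strand for Tm7sf2. Whether strand was used in the counting was not given in the sources used here, so reads of such pairs may not be told apart.

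Each of 6 classes was tested against excitatory neuron-like cells in edgeR, with the library as a block and adjustment over all genes tested. Values in brackets are log2 differences, class minus excitatory neuron-like cells, with their SE. In radial glia or astrocyte-like cells 25 of 33 genes were higher and 5 lower, where 40.6% of all genes were higher and 42.1% lower. The median log2 difference of the 33 was 1.03, against -0.02 over all genes tested. Of the sterol enzymes 15 of 18 were higher and none lower, with Acat2, Fdft1 and Ebp not called. Idi1 (2.08, SE 0.05, edgeR adjusted p = 9.29e-16) and Msmo1, a sterol demethylase (2.01, SE 0.05, edgeR adjusted p = 1.32e-15), differed most among them. Of the sensing and transport genes Srebf1 (3.39, SE 0.12), Stard4 (2.15, SE 0.10), Insig1 (2.08, SE 0.08), Srebf2 (0.59, SE 0.05) and Scap (0.48, SE 0.07) were higher, and Insig2 was lower (-0.24, SE 0.06).

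The fatty acid genes were split in the same contrast. Scd1 (3.98, SE 0.10), Fads2 (2.88, SE 0.06), Scd2 (2.14, SE 0.06) and Fads1 (1.69, SE 0.05) were higher, and so was Acss2 (1.57, SE 0.10). Acaca (-0.72, SE 0.07), Elovl6, which lengthens palmitate (-0.47, SE 0.06), Acly (-0.26, SE 0.06) and Fasn (-0.13, SE 0.05) were lower. Of 30 other pathway genes tested, 14 were higher and 13 lower. Elovl1, an elongase of very long chains, was higher (3.34, SE 0.12), as was Hsd17b12, a reductase of the elongation cycle (1.34, SE 0.05).

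In oligodendrocyte precursor-like cells 16 of 33 genes were higher and 7 lower than in excitatory neuron-like cells, against 29.8% and 34.7% of all genes (median 0.23 against -0.06). Scd1 led with 3.11, SE 0.22, followed by Insig1 (1.63, SE 0.10) and Idi1 (1.53, SE 0.07). The squalene synthase gene Fdft1 was lower (-0.78, SE 0.09), as was Insig2 (-0.85, SE 0.12). Hmgcs1 was not called (-0.09, SE 0.06). Of the other pathway genes 10 of 30 were higher and 8 lower.

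Dividing cell-like cells, marked by mitosis genes, had 14 genes higher and 12 lower, against 38.5% and 41.9% of all genes (median 0.10 against -0.05). Of the 8 enzymes up to squalene 6 were lower, among them Mvd (-0.93, SE 0.09), Fdps (-0.71, SE 0.05) and Hmgcs1 (-0.50, SE 0.04). Idi1 (0.90, SE 0.05) and Mvk, the mevalonate kinase (0.52, SE 0.07), were higher. Elovl6 was lowest (-1.20, SE 0.07) and Scd1 highest (2.03, SE 0.15). With cells chosen one by one by a marker gate, Lss (0.14), Tm7sf2 (0.18) and Acly (-0.06) turned direction and were not called. Of the other pathway genes 10 of 30 were higher and 14 lower.

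Inhibitory neuron-like cells had 12 genes higher and 9 lower, against 27.2% and 28.2% of all genes, with medians of 0.01 for the 33 and -0.01 for all genes. With the marker gate 7 were higher. Mvk (0.82, SE 0.07), Pmvk, the next kinase (0.62, SE 0.05), and Acat2 (0.58, SE 0.05) were higher, and Srebf1 (-0.95, SE 0.31), Elovl6 (-0.67, SE 0.05) and Fads2 (-0.51, SE 0.07) lower. Of the other pathway genes 13 of 31 were higher and 8 lower.

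Endothelial cell-like and microglia-like cells were lower for most of the genes. In endothelial cell-like cells 26 of 33 were lower and 3 higher, against 41.0% and 31.9% of all genes (median -1.22 against -0.20). The 3 higher genes were Stard4 (3.07, SE 0.15), Srebf1 (1.98, SE 0.31) and Ebp (1.55, SE 0.14), and Fasn was lowest (-2.93, SE 0.20). In microglia-like cells 22 were lower and 2 higher, against 35.1% and 27.6% of all genes (median -1.38 against -0.26). Srebf1 (3.04, SE 0.33) and Ebp (1.95, SE 0.18) were the higher ones, and Elovl6 was lowest (-3.28, SE 0.30). Scd2 (-0.31, SE 0.15) and Fads1 (0.15, SE 0.19) were not called. Lipa, the lysosomal lipase, and Elovl1 had the smallest p among other pathway genes in both classes, with Lipa higher by 4.64, SE 0.15 in endothelial cell-like and 4.48, SE 0.23 in microglia-like cells.

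Transcripts typical of other cells were present in these small classes. All 8 excitatory markers had UMIs in microglia-like cells, with a summed level of 57.5 to 250.4 CPM, or 8.14% of that in excitatory neuron-like cells. In endothelial cell-like cells the sum was 40.95 to 118 CPM (5.26%). All 12 radial glia or astrocyte markers had UMIs in both classes, and their sum in microglia-like cells was 211, 159, 848, 96.9 and 866 CPM in WT 1, 2, 3 and KO 2, 3. Hmgcs1 in microglia-like cells was 42.5, 47.4, 151, 62.4 and 115 CPM in that order. Both were highest in WT 3 and KO 3, the libraries with the largest share of low-RNA cells. Without that cluster, an analysis added after the data were seen, the sum of the fatty acid enzymes in microglia-like cells was 312 CPM and that of the sterol enzymes 393 CPM. The part of such RNA in these levels was not tested.

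**Figure D3:**
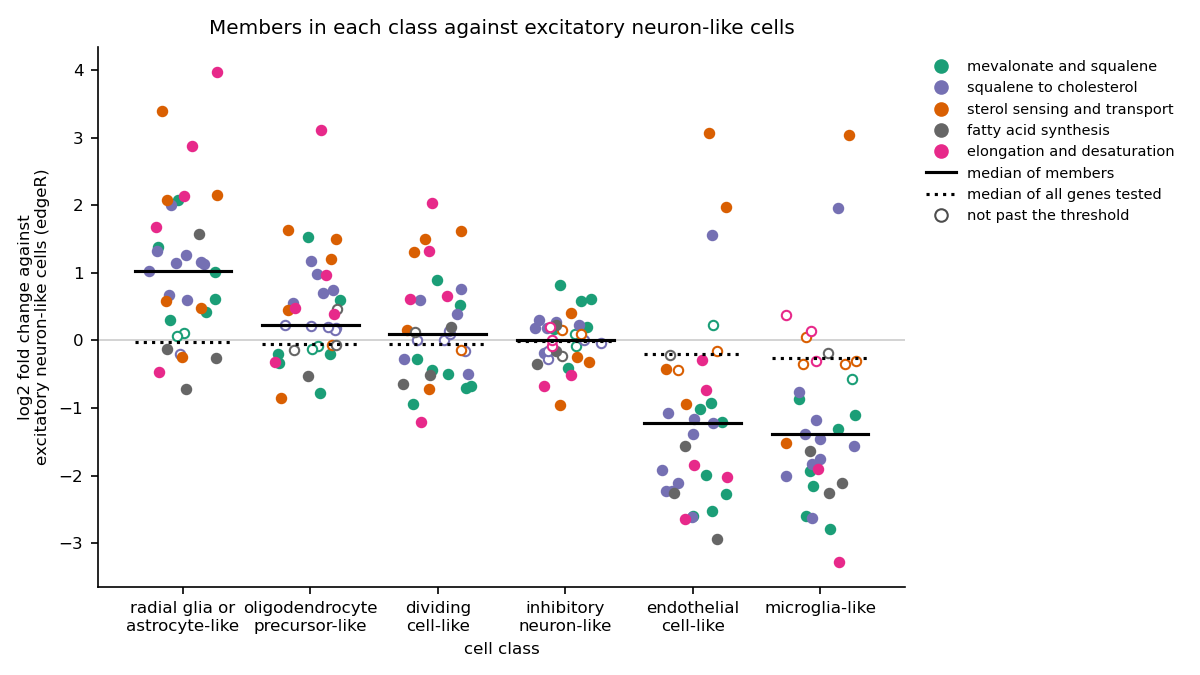
Log2 fold change (edgeR, vertical axis) of each of the 33 genes in 6 classes against excitatory neuron-like cells. Filled points pass the adjusted threshold of 0.05 and open ones do not, colors mark the role groups, solid lines are medians of the 33 genes and dotted lines medians of all genes tested; the solid line is at 1.03 in radial glia or astrocyte-like and at -1.38 in microglia-like cells.

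Within the glial lineage, clusters with Aqp4, the water channel of astrocytes, among their leading genes were set against clusters with Hopx, a gene of radial glia. They are called Aqp4-led and Hopx-led, although other glial genes came first in some of them. Both sets come from the same libraries, and they are compared by whether every library of one exceeded every library of the other. Aqp4-led cells were above for 7 of 33 genes and below for none, against 9.92% and 20% of all genes. Scd1 was 87.3, 66.7, 76.5, 76.4 and 54.3 CPM in Aqp4-led and 30.4, 16.4, 30.4, 17.3 and 27.2 CPM in Hopx-led cells. Fads2 (431 ± 33.1 against 209 ± 31.7 CPM) and Hmgcs1 (895 ± 83.3 against 656 ± 54.5 CPM) were also separated. Mvk, Acss2, Fads1 and Tm7sf2, a sterol reductase, completed the 7. Of the 1463 Hopx-led cells, 544 were in a low-RNA cluster with a median of 1850 UMIs per cell. In that cluster Fabp7, Aldoc and Apoe came before Hopx among the leading genes. Of the 1521 Aqp4-led cells, 962 were in a cluster where Fabp7 and Apoe came before Aqp4. Median UMIs per cell by library were 8181 to 10874 in Aqp4-led and 3809 to 7024 in Hopx-led cells. The part of RNA content in the difference was not tested.

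Against intermediate progenitor-like cells, radial glia or astrocyte-like cells were above in every library for 29 of 33 genes and below for Ebp and Acly, where 27.5% and 28.3% of all genes were. Most of those intermediate progenitor-like cells met no single marker list, as given above. Dividing cell-like cells were below radial glia or astrocyte-like cells for 27 genes and above for Ebp and Acly, against 26.1% and 22.9% of all genes. Of the 28 genes with enough UMIs, Fads2 alone was higher in every library of dividing oligodendrocyte precursor-like than oligodendrocyte precursor-like cells and none was lower (8.44% and 5.61% of all genes).

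Excitatory neuron-like clusters were named by the markers of a hippocampal field or by Prox1 among their leading genes. Another 2163 cells met no field, with a sterol enzyme sum 0.648 ± 0.055 times that of all excitatory neuron-like cells. Of the 3411 CA1 pyramidal neuron-like cells, 1658 were in a cluster led by Cck, Sema3c and Neurod6. Of the 3046 CA3 pyramidal neuron-like cells, 1632 were in a cluster led by Grp, Neurod6 and Cntn2. Neither cluster had a marker of its field among its leading genes. Cells led by Prox1, a transcription factor of dentate granule neurons, had a sterol enzyme sum of 729 ± 88.4 CPM, CA1 pyramidal neuron-like cells 1745 ± 94.7 CPM and CA3 pyramidal neuron-like cells 1918 ± 61.9 CPM. The Prox1-led cells were 2821 cells of a cluster led also by Calb2 and Sox11, a transcription factor of immature neurons, and 971 cells of a cluster led also by Nrgn, a calmodulin-binding protein of maturing neurons, and C1ql3. Looked at apart after their values were seen, the Sox11 cluster had a sterol enzyme sum of 588 ± 31.9 CPM and the Nrgn cluster 1026 ± 77.2 CPM, both below every CA1-like and CA3-like value. CA3-like cells were above Prox1-led cells in every library for 21 of 32 genes and below for Fads1, against 23.7% and 25.2% of all genes. Hmgcs1 was 537, 474, 611, 529.9 and 507 CPM in CA3-like and 84.6, 84.5, 122, 128 and 128 CPM in Prox1-led cells. Idi1 (82.8 ± 8.38 against 24.3 ± 7.83 CPM) and Sqle (149 ± 11.9 against 58.3 ± 7.76 CPM) were separated the same way. Fads1, the desaturase that acts after Fads2, was 40.2, 31.1, 31.4, 35.8 and 35.9 CPM in CA3-like and 81.5, 72.8, 75.99, 75.7 and 84.2 CPM in Prox1-led cells. CA1-like cells were above Prox1-led cells for 19 of 32 genes and below for Acaca, Elovl6 and Fads1, against 21.6% and 19.9% of all genes. Hmgcs1, Pmvk, Hsd17b7, Ebp and Acaca were lower in every library of CA1-like than CA3-like cells and no gene was higher, against 12% and 12.4% of all genes. Median UMIs per cell were 14364 to 18218 in CA3-like, 9469 to 12218 in CA1-like and 6695 to 8478 in Prox1-led cells, in the order of the sterol enzyme sums. Their part in these differences was not tested.

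**Figure D4:**
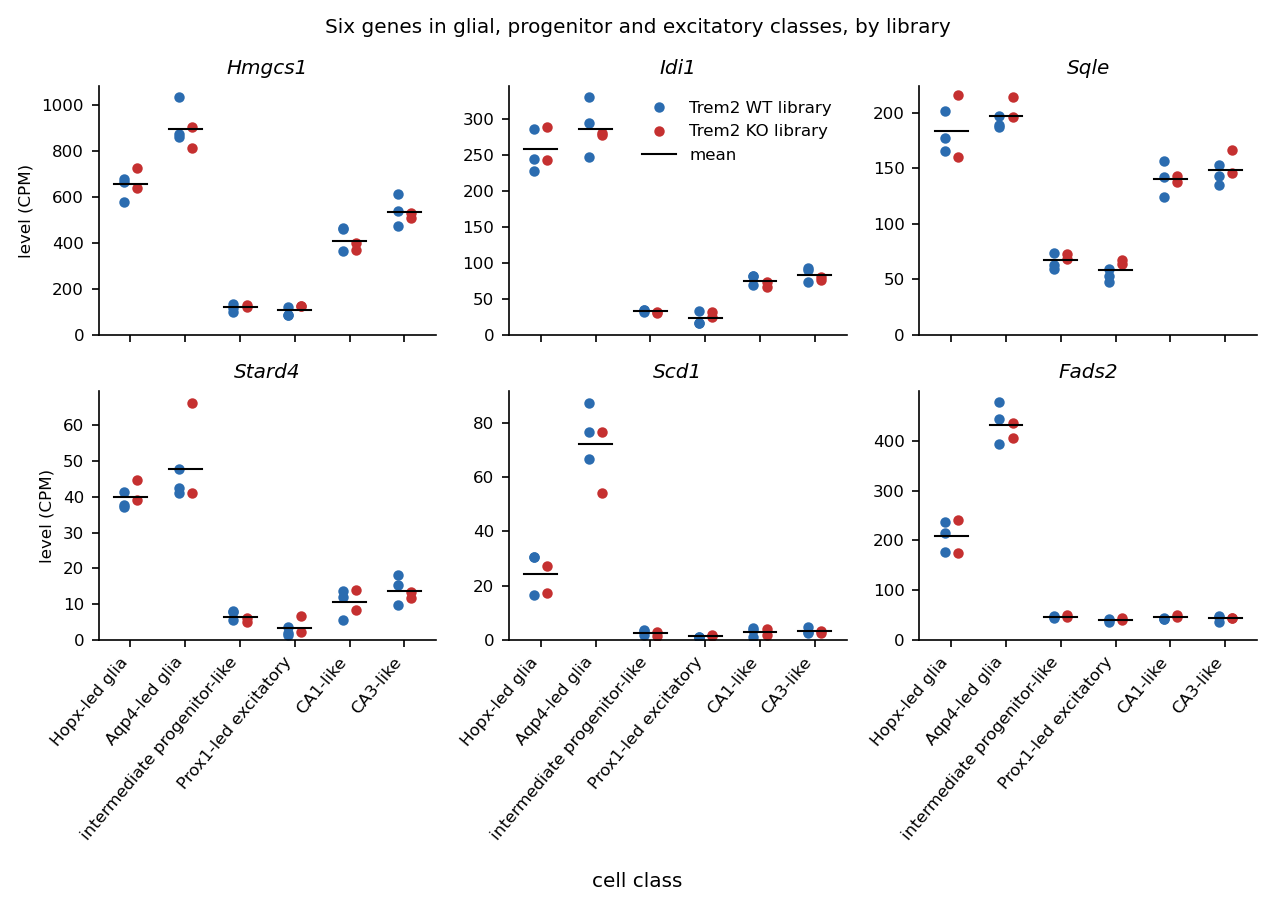
Level in CPM (vertical axes, each with its own scale from 0) of Hmgcs1, Idi1, Sqle, Stard4, Scd1 and Fads2 in glial, progenitor and excitatory classes. Each point is a library (blue Trem2 WT, red Trem2 KO) and each line the mean of 5 libraries; Scd1 and Fads2 are higher in Aqp4-led than Hopx-led glia, and Hmgcs1, Idi1 and Sqle are higher in CA1-like and CA3-like than in Prox1-led cells.

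Trem2 KO libraries were compared with Trem2 WT libraries. Trem2 is a lipid-binding receptor that microglia carry in the brain. No gene of the 33 passed the adjusted threshold of 0.05 in any of 15 classes, in edgeR or in DESeq2. Over all genes tested edgeR called 0.0% in 9 classes, 0.00885% in Cajal-Retzius neuron-like, 0.0152% in dividing oligodendrocyte precursor-like, 0.025% in endothelial cell-like, 0.0264% in inhibitory neuron-like, 0.028% in microglia-like and 0.0328% in meningeal fibroblast-like cells. The median log2 difference of the genes tested, KO minus WT, lay between -0.10 in oligodendrocyte precursor-like and 0.22 in microglia-like cells. Values in brackets below are log2 differences, KO minus WT, with their SE and adjusted p. Only 20 of the 33 had enough UMIs for the test in microglia-like cells and 22 in endothelial cell-like cells. In simulated data the test recovered 30.1% of 1.5-fold changes in excitatory neuron-like and 22.2% in radial glia or astrocyte-like cells. At 2-fold it recovered 78% and 74.2%. In microglia-like cells it recovered 0% of 1.5-fold, 0% of 2-fold and 47.1% of 4-fold changes. Differences of such sizes could therefore be missed.

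Sums of the sterol enzymes by genotype are given here for some of the classes. The sterol enzyme sum in radial glia or astrocyte-like cells was 2938 ± 158 CPM in WT (n = 3) and 3010 ± 5.81 CPM in KO libraries (n = 2). It was 1499 ± 97.9 and 1567 ± 22.4 CPM in excitatory neuron-like cells and 488 ± 260.2 and 486 ± 80.4 CPM in microglia-like cells. WT and KO libraries overlapped in these 3 classes. In Prox1-led excitatory cells the sum was 649, 626 and 768 CPM in WT and 772 and 833 CPM in KO libraries, without overlap. The Nrgn cluster, with the higher sterol sum, made up 10.4%, 13.5% and 29.4% of the Prox1-led cells in WT 1, 2 and 3 and 25.3% and 41.8% in KO 2 and 3, and these shares overlapped. Within the Sox11 cluster the sum was 581, 569 and 589 CPM in WT and 641 and 559 CPM in KO libraries, and within the Nrgn cluster 1074, 896 and 1075 CPM in WT and 1014 and 1072 CPM in KO libraries. The genotypes overlapped in each cluster.

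In radial glia or astrocyte-like cells 0 of 33 genes had an unadjusted p under 0.05 (1.91% of all genes), and the KO libraries lay above all WT libraries for 2 and below for 0 (8.01% and 6.53% of all genes). Scap, the SREBP escort, was 30.2, 27.9 and 28.5 CPM in WT and 34.8 and 35.5 CPM in KO libraries, without overlap (0.27, SE 0.14, edgeR adjusted p = 1). Insig1 was 78.4, 82.5 and 109.6 CPM in WT and 100.4 and 117 CPM in KO, with overlap (0.27, SE 0.14, edgeR adjusted p = 1). Fdps there was 326, 432 and 335 CPM in WT and 441 and 367 CPM in KO libraries, and both libraries numbered 2, from 2 males by the descriptions, were highest whatever the genotype. Among 12 classes that are not parts of another, Fdps was highest in both libraries numbered 2 in 6 classes, and Pmvk and Elovl6 in 7 each. Fdps was above all WT libraries in both KO libraries in 4 classes, and Scap in 5. The same counts were not made over all genes. Values of a gene in several classes come from the same 5 libraries, so they are not independent. The part of sex in these values was not tested. Cluster make-up also differed. A low-RNA glial cluster of 544 cells, led by Fabp7, Aldoc and Apoe, had a median of 1850 UMIs per cell. The medians of the other glial clusters were 7160 to 10365.5 UMIs. The low-RNA cluster held 8.21%, 7.83% and 11.99% of the class in WT and 14.2% and 19.1% in KO libraries. The cluster led by Olig1 and Olig2 held 16.3%, 16.2% and 14.1% in WT and 11.7% and 10.4% in KO. Their part was not tested either.

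In oligodendrocyte precursor-like cells 5 of 32 genes had an unadjusted p under 0.05 (3.42% of all genes), and the KO libraries lay above all WT libraries for 1 and below for 3 (9.43% and 10.1% of all genes). Scd1 was 33.5, 24.6 and 28.5 CPM in WT and 14.7 and 14.99 CPM in KO libraries, the latter from 10 and 11 UMIs (-0.96, SE 0.32, edgeR adjusted p = 1). Fdps was 205, 229 and 203 CPM in WT and 314 and 260.4 CPM in KO, without overlap (0.45, SE 0.16, edgeR adjusted p = 1). Acss2 had the largest difference, resting on 1 and 5 UMIs in the KO libraries (-1.60, SE 0.57, edgeR adjusted p = 1). Those cells that were dividing were tested apart. In dividing oligodendrocyte precursor-like cells 1 of 28 genes had an unadjusted p under 0.05 (3.27% of all genes), and the KO libraries lay above all WT libraries for 7 and below for 1 (9.86% and 9.16% of all genes). Fdps was 209, 213 and 239 CPM in WT and 359.5 and 246 CPM in KO libraries, without overlap (0.46, SE 0.19, edgeR adjusted p = 0.998).

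Among excitatory neuron-like cells 2 of 33 genes had an unadjusted p under 0.05 (3.14% of all genes), and the KO libraries lay above all WT libraries for 4 and below for 2 (7.13% and 11.3% of all genes). Fdps was 261, 256 and 269 CPM in WT and 311 and 289 CPM in KO libraries, without overlap (0.22, SE 0.09, edgeR adjusted p = 0.999). Scap was 21.4, 22.1 and 18.3 CPM in WT and 23.6 and 25.5 CPM in KO, also without overlap (0.28, SE 0.12, edgeR adjusted p = 0.999). The Sox11 cluster of Prox1-led cells made up 28.1%, 27.7% and 22.5% of excitatory neuron-like cells in WT and 20.02% and 17.9% in KO libraries, and its part in these values was not tested. For the Prox1-led cells among them, whose clusters were mixed unequally over the libraries as given above, 5 of 32 genes had an unadjusted p under 0.05 (6.04% of all genes), and the KO libraries lay above all WT libraries for 7 and below for 1 (9.8% and 12% of all genes). Fdps was 112, 118 and 120 CPM in WT and 139.7 and 145 CPM in KO libraries, without overlap (0.31, SE 0.10, edgeR adjusted p = 0.742). Msmo1 was 22.6, 17.2 and 33.02 CPM in WT and 31.96 and 44.8 CPM in KO and overlapped (0.65, SE 0.23, edgeR adjusted p = 0.745). Without the filter on low counts Msmo1 passed in Prox1-led cells (edgeR adjusted p = 0.0233). Within the single clusters both genes overlapped between genotypes. Fdps was 102, 110.5 and 101 CPM in WT and 126 and 91.2 CPM in KO libraries of the Sox11 cluster, and 178, 152 and 153 CPM in WT and 164 and 193 CPM in KO libraries of the Nrgn cluster. Msmo1 was 17.4, 15.1 and 18.6 CPM in WT and 18.6 and 20.6 CPM in KO in the former, and 55.7, 27.6 and 57.7 CPM in WT and 56.6 and 65.95 CPM in KO in the latter.

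CA1-like and CA3-like cells were also tested apart. In CA1-like cells 1 of 33 genes had an unadjusted p under 0.05 (3.71% of all genes), and the KO libraries lay above all WT libraries for 2 and below for 1 (7.45% and 10.7% of all genes). In CA3-like cells 0 of 33 genes had an unadjusted p under 0.05 (3.56% of all genes), and the KO libraries lay above all WT libraries for 2 and below for 1 (7.31% and 11.8% of all genes). Scap in CA1-like cells was 19.7, 25.9 and 19.3 CPM in WT and 25.4 and 27.9 CPM in KO libraries, with overlap (0.37, SE 0.16, edgeR adjusted p = 0.997). Fdps in CA3-like cells was 317, 319 and 317 CPM in WT and 377 and 340.1 CPM in KO, without overlap (0.20, SE 0.09, edgeR adjusted p = 0.999).

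Within inhibitory neuron-like cells 2 of 32 genes had an unadjusted p under 0.05 (6.15% of all genes), and the KO libraries lay above all WT libraries for 2 and below for 3 (8.48% and 12.8% of all genes). Mvk was 47.5, 46.5 and 39.7 CPM in WT and 61.4 and 55.3 CPM in KO libraries, without overlap (0.45, SE 0.15, edgeR adjusted p = 0.67). Dhcr7 was 23.3, 19.2 and 21.3 CPM in WT and 30.4 and 28.6 CPM in KO, also without overlap (0.48, SE 0.18, edgeR adjusted p = 0.788). The most numerous inhibitory cluster, led by Adarb2 and Cnr1, held 43.7%, 42.4% and 41.6% of the class in WT and 35.2% and 35.3% in KO libraries, and its part was not tested. Cajal-Retzius neurons are early-born cells of the outermost layer. In the class like them 3 of 32 genes had an unadjusted p under 0.05 (3.1% of all genes), and the KO libraries lay above all WT libraries for 4 and below for 1 (7.82% and 11.1% of all genes). Fdps was 162, 215 and 168 CPM in WT and 258 and 227 CPM in KO libraries, without overlap (0.44, SE 0.13, edgeR adjusted p = 1). Insig1 was 20.9, 14.9 and 19.4 CPM in WT and 27.7 and 26.2 CPM in KO (0.57, SE 0.20, edgeR adjusted p = 1), again without overlap. The smaller of 2 Cajal-Retzius clusters held 4.45%, 5.39% and 8.503% of these cells in WT and 9.39% and 12.4% in KO libraries, and its part was not tested.

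For intermediate progenitor-like cells 1 of 33 genes had an unadjusted p under 0.05 (2.25% of all genes), and the KO libraries lay above all WT libraries for 6 and below for 2 (8.35% and 7.74% of all genes). Fads1 was 73.6, 65.6 and 71.3 CPM in WT and 80.5 and 90.5 CPM in KO libraries, without overlap (0.27, SE 0.12, edgeR adjusted p = 1). For dividing cell-like cells 2 of 33 genes had an unadjusted p under 0.05 (3.39% of all genes), and the KO libraries lay above all WT libraries for 4 and below for 1 (9.98% and 8.63% of all genes). Sqle was 115, 119 and 120.1 CPM in WT and 139.5 and 141 CPM in KO libraries (0.24, SE 0.11, edgeR adjusted p = 1), and Ebp was 32.1, 32.5 and 32.1 CPM in WT and 40.5 and 41.1 CPM in KO (0.33, SE 0.15, edgeR adjusted p = 1), both without overlap. The dividing cluster led by Hist1h1b and Fabp7 held 27.98%, 22.5% and 25.98% of this class in WT and 21.2% and 19.2% in KO libraries, with its part not tested. Among ependymal cell-like cells 0 of 33 genes had an unadjusted p under 0.05 (1.81% of all genes), and the KO libraries lay above all WT libraries for 4 and below for 2 (8.68% and 7.81% of all genes). Insig1 there was 32.1, 27.2 and 35.5 CPM in WT and 37.7 and 47.4 CPM in KO libraries (0.42, SE 0.19, edgeR adjusted p = 1), and the groups did not overlap. They overlapped within the cilia-led clusters (19.3, 14.6 and 22.7 CPM in WT, 20.6 and 22.4 CPM in KO) and within the other pair (59.3, 49.4 and 79.5 CPM in WT, 67.2 and 128 CPM in KO).

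Microglia-like cells were the class used above to check Trem2. There 0 of 20 genes had an unadjusted p under 0.05 (2.99% of all genes), and the KO libraries lay above all WT libraries for 1 and below for 1 (8.42% and 13.1% of all genes). Fasn was 23.3, 19.8 and 14.1 CPM in WT and 32.9 and 31.3 CPM in KO libraries, without overlap (0.72, SE 0.40, edgeR adjusted p = 1). Sqle was 12.5, 7.9 and 21.1 CPM in WT and 19.7 and 41.7 CPM in KO, and its overlapping values were highest in KO 3 and WT 3 (1.18, SE 0.61, edgeR adjusted p = 1). Endothelial cells line the vessels. In the class like them 1 of 22 genes had an unadjusted p under 0.05 (5.66% of all genes), and the KO libraries lay above all WT libraries for 7 and below for 1 (10.4% and 13% of all genes). Msmo1 was 24.7, 19.5 and 22.6 CPM in WT and 57.4 and 30.1 CPM in KO libraries, without overlap (0.79, SE 0.35, edgeR adjusted p = 0.846). Among meningeal fibroblast-like cells 1 of 30 genes had an unadjusted p under 0.05 (4.86% of all genes), and the KO libraries lay above all WT libraries for 6 and below for 2 (9.66% and 11.2% of all genes). Msmo1 was 40.9, 31.3 and 49.8 CPM in WT and 55.7 and 65.2 CPM in KO there, without overlap (0.56, SE 0.25, edgeR adjusted p = 0.999).

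The genotype differences of radial glia or astrocyte-like and excitatory neuron-like cells were also compared directly, by the interaction of class and genotype in edgeR. None of the 33 genes passed, and 0.0% of 15467 genes did. At an unadjusted p under 0.05 there were 638 genes, 0 of them among the 33, and DESeq2 called 0 genes. Srebf1 had the smallest p of the 33, with a log2 difference of 0.42 in the glia and -0.06 in the neurons (0.44, SE 0.24, edgeR adjusted p = 1).

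**Figure D5:**
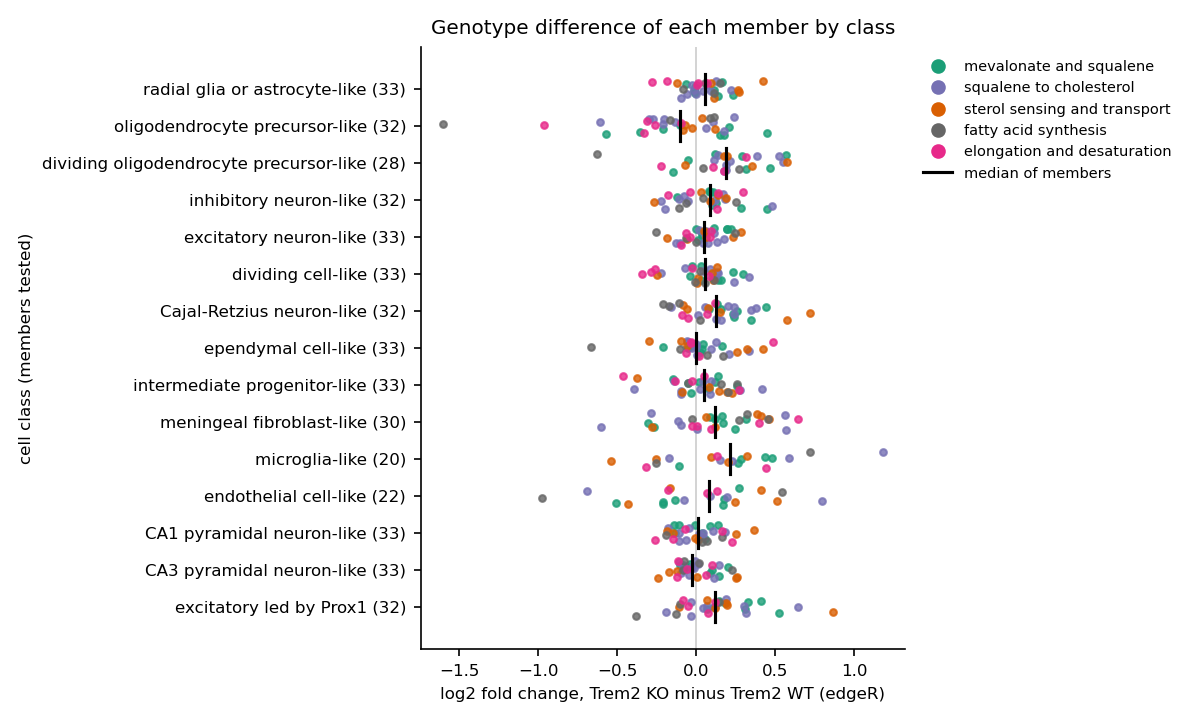
Log2 fold change, Trem2 KO minus Trem2 WT (edgeR, horizontal axis), of each gene tested in 15 classes, with the number tested in brackets; colors mark the role groups and vertical lines the medians of the genes. The medians lie between -0.10 and 0.22, and no point passes the adjusted threshold of 0.05. CA1-like, CA3-like and Prox1-led cells are parts of excitatory neuron-like cells.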

How the data were processed

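Per the labels' protocols, papain-dissociated hippocampal cells were run on a 10x 3′ v3.1 kit, which tags single transcripts with UMIs. The deposited values are raw UMI counts per gene and barcode, made with Cell Ranger 6.1 on mm10 per the submitters' processing notes (matrix writer 6.1.1 per the file headers). The annotation release was not given in the sources used here; gene positions came from GENCODE M21 on the same build.

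Barcodes with at least 500 genes, 1000 UMIs and at most 15% mitochondrial UMIs were kept. Scrublet's own threshold marked under 0.5% of cells in 3 libraries; there the highest scores were removed, up to 0.8% per 1000 barcodes. Clustering (scanpy 1.11.5, 2000 variable genes, 30 components, 15 neighbours, leidenalg 0.10.2 at resolution 2) gave 60 clusters, of which 6 (841 cells) stayed unnamed.

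UMIs were added up by class within each library, and these sums entered edgeR 4.0.16 (quasi-likelihood test, TMM factors, filterByExpr, Benjamini-Hochberg over all genes, threshold 0.05), checked on simulated data. Classes with 20 cells in every library were tested for genotype. DESeq2 1.42.0, RLE factors, no filter, a replicate block, each library left out, a 5% mitochondrial limit, doublets kept and a marker gate per cell were alternatives. In comparisons of classes by library ranges, genes with a mean of at least 20 UMIs were used. Nothing states that libraries came from separate litters, so p-values measure the spread between libraries, which may be technical.

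The members, gene lists and markers were chosen with earlier results of these data known. Values per library were given for up to 3 genes per role with the widest range over classes and up to 2 genes per class with the smallest genotype p. Other genes named were chosen after their values were seen.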

Additional observations from a re-analysis of the deposited data

How the results depend on the processing

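The count of the 33 genes called between genotypes was 0 in 176 of 178 values over 15 classes and their alternatives. In Prox1-led excitatory cells it was 1 (Msmo1) without the filter on low counts and 3 (Hmgcs1, Mvd and Msmo1) with the replicate number as a block. Same-numbered libraries deviated together (correlation 0.415 in excitatory neuron-like and 0.426 in radial glia or astrocyte-like cells), but there were only 2 pairs and no label ties a number to a litter or day. With the block 2 to 334 genes passed per class and without the filter 1 to 116, against 0 to 3 in the main analysis. DESeq2 called 0 to 10, and leaving out 1 library gave 0 to 44, the most in endothelial cell-like cells without KO 3. For the interaction, 47 genes passed without the filter, 6 without WT 2, 3 without KO 3 and 1 without KO 2, none of them among the 33.

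Against excitatory neuron-like cells, 25 to 26 genes were higher in radial glia or astrocyte-like cells under the alternatives run. With the marker gate per cell 7 were higher in inhibitory neuron-like cells, the sterol enzyme sum was 1626 CPM in excitatory neuron-like and 1874 CPM in dividing cell-like cells, and the fatty acid sum of dividing cell-like cells was 904 CPM. In dividing cell-like cells the gate turned Lss (0.14), Tm7sf2 (0.18) and Acly (-0.0596). The fatty acid sum of microglia-like cells was 323 CPM with doublets kept and 312 CPM without the low-RNA cluster. At a mitochondrial limit of 5% Sqle in meningeal fibroblast-like cells turned to -0.0893. The cause of these shifts was not tested.

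Trem2 in microglia-like cells differed by -4.34 to -3.78 when 1 library was left out, with edgeR adjusted p = 0.0662 without WT 2, 0.649 without KO 2 and 0.204 without KO 3. Over all alternatives the adjusted p ranged from 6.6e-25 (DESeq2) to 0.649. Microglia-like cells numbered 49 to 126 per library, which limits what could be detected there.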
